A study of Homo sapiens with 24 samples.

Results

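The G2 and mitosis genes described here are 44 genes whose products start mitosis, build and check the spindle, separate the sister chromatids and divide the cell. They were taken by name from a list of mitotic genes by a rule that uses no measured value. The list itself was chosen with earlier results of these data known. All 44 were found among the 60655 genes of the deposited table of read counts, and all 44 had enough reads to be tested in every comparison. The table came from mRNA sequencing of 24 libraries of 2 human leukaemia cell lines, 3 libraries in each of 8 groups. NB4 is an acute promyelocytic leukaemia (APL) line, which carries the PML-RARA fusion. It was treated with all-trans retinoic acid (ATRA, 1 µM), with arsenic trioxide (ATO, 0.8 µM) or with both drugs (ATRA+ATO), or was left untreated. HL-60 is a promyeloblast line of acute myeloid leukaemia without that fusion, and it had the same 4 groups. Treatment lasted 48 h, the labels give both lines as WT, and they give neither a separate dose for the drugs in ATRA+ATO nor a culture time for untreated cells. Each line is 1 cell line, and nothing in the labels says that the 3 libraries of a group came from separate cultures, so the p-values measure the spread between these libraries, which may be technical.

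Entry into mitosis is driven by CDK1 bound to cyclin A or cyclin B, after CDC25 phosphatases have removed inhibitory phosphates from CDK1. The spindle assembly checkpoint then holds CDC20 back until every kinetochore is attached to microtubules, and the anaphase promoting complex with CDC20 and UBE2C marks securin and cyclin B for destruction so that separase can cut cohesin. Most of these genes are transcribed late in the cell cycle, through MuvB complexes with MYBL2 and FOXM1 at cell cycle genes homology regions and through NF-Y at CCAAT boxes. ATRA is known to drive both lines toward mature myeloid cells that leave the cell cycle, and ATO is known to degrade PML-RARA.

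Library totals ran from 37811652 to 57795273 counts. Levels are given as CPM, counts relative to the total of the library, scaled by trimmed means of M-values (TMM) over all 24 libraries. In GENCODE v29, NUSAP1 and PRC1 share 62.2% and 58.4% of their exon bases with other annotated genes. Both lay near 1 CPM in every group, so their values are uncertain. FOXM1 shares 15.9% of its exon bases with ITFG2 on the opposite strand, and strandedness is not given in the sources used here. A pair of libraries stood apart from the others of their group by a chi-square of the counts per degree of freedom. NB4 ATRA replicate 2 differed from replicates 1 and 3 by 18.7 and 35.5, against 14.2 between those 2, and HL-60 ATRA+ATO replicate 2 differed by 23.5 and 16.9, against 5.44. Some of the results that rest on either are also given without it. No 2 libraries held the same values.

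The summed level of 9 myeloid precursor markers was 2496 to 3201 CPM in NB4 ATRA+ATO libraries, against 9393 to 10070 CPM in untreated NB4. It was 1157 to 1349 CPM in HL-60 ATRA+ATO libraries, against 5301 to 5970 CPM in untreated HL-60. The sum of 10 mature neutrophil and monocyte markers was 4617 to 5408 CPM in NB4 ATRA+ATO libraries, against 248 to 265 CPM in untreated NB4, and 1735 to 1866 CPM in HL-60 ATRA+ATO libraries, against 413 to 418 CPM in untreated HL-60. ELANE was under 1 CPM in every NB4 group. Of 6 erythroid markers, 5 were at 0 in every group, and the list summed to at most 1.09 CPM in any library. The sum of 9 lymphoid markers was 46.7 to 52.7 CPM in NB4 ATRA+ATO libraries, against 8.20 to 9.05 CPM in untreated NB4. It was 3.27 to 4.5 CPM in HL-60 ATRA+ATO libraries, against 1.36 to 1.87 CPM in untreated HL-60. CD8A and MS4A1 were at 0 in every group. Of the 9, 5 averaged under 1 CPM in NB4 ATRA+ATO and 8 in HL-60 ATRA+ATO, so the sums rest on few markers. The sum of 10 epithelial and stromal markers was 152 to 159 CPM in NB4 ATRA+ATO libraries, against 31.6 to 37.0 CPM in untreated NB4. It was 116 to 121 CPM in HL-60 ATRA+ATO libraries, against 75.2 to 84.0 CPM in untreated HL-60. COL1A2, DCN and KRT19 were at 0 in every group. Of the 10, 7 averaged under 1 CPM in NB4 ATRA+ATO and 9 in HL-60 ATRA+ATO, so these sums also rest on few markers. The markers moved with the treatments alongside the mitotic genes described below, and their part in those results was not tested. In bulk RNA, fewer cells in G2 and mitosis and less of an mRNA per cell cannot be told apart.

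In untreated cells the mitotic genes were expressed at very different levels, and a part of them differed between the lines. Per kilobase of exon, the highest mean levels in untreated NB4 were 94.6 CPM for TPX2, 94.3 for CCNB1, 93.9 for TOP2A and 91.8 for CCNA2. In untreated HL-60 they were 155 CPM per kilobase for TOP2A, 106 for CDC20, 101 for TPX2 and 88.6 for CCNA2. Apart from NUSAP1 and PRC1, the lowest member was CDC25C in both lines, at 3.91 CPM per kilobase in NB4 and 4.34 in HL-60. Between the untreated lines, 11 members were higher and 17 lower in NB4 than in HL-60, and 16 did not pass (edgeR quasi-likelihood test, adjusted p below 0.05). That is 63.6% of the members called, beside 63.2% of all 17930 genes tested, with 25% of the members and 29.1% of all genes higher in NB4 and 38.6% of the members and 34% of all genes lower. Scaled by library sizes alone, the same comparison gave 17 higher and 16 lower, and that scaling moved the median of all genes by 0.15 on the log2 scale.

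UBE2C, the ubiquitin-conjugating enzyme that works with the anaphase promoting complex, differed most between the lines. It had 39.2, 38.2 and 38 CPM in untreated NB4, against 6.78, 7.32 and 7.85 CPM in untreated HL-60. The groups did not overlap, and the log2 difference was 2.39 ± 0.111 (SE). CCNB1, which encodes cyclin B1, averaged 241 ± 6.26 CPM in untreated NB4 and 134 ± 2.56 CPM in untreated HL-60 (SD, n = 3 each). KIF20A, a kinesin of the midzone and cytokinesis, averaged 82.1 ± 2.07 CPM in untreated NB4 and 60.9 ± 3.08 CPM in untreated HL-60 (SD, n = 3 each). Their log2 differences were 0.85 ± 0.0541 and 0.43 ± 0.064. Of the 7 centromere and kinetochore members, CENPF, NDC80, NUF2 and SPC24 were lower in NB4 and 3 did not pass. NDC80, which holds microtubules, averaged 39.2 ± 4.6 CPM in untreated NB4 and 101 ± 5.6 CPM in untreated HL-60 (SD, n = 3 each), a log2 difference of -1.37 ± 0.0803. Its partner NUF2 and the linked subunit SPC24 differed by -0.87 ± 0.078 and -0.94 ± 0.0899, whereas SPC25 did not pass (0.06 ± 0.107, edgeR adjusted p = 0.629). The log2 differences of ASPM, CENPF and the checkpoint kinase TTK were -0.88 ± 0.133, -0.86 ± 0.138 and -0.75 ± 0.0848. All calls named in this paragraph held when each library was left out.

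In NB4, members rose and fell with each treatment, and with ATRA+ATO more of them fell than rose. All genes tested were split about evenly with each treatment. In HL-60, nearly every member that passed the test fell. NB4 cells given ATRA had 8 members higher (18.2%) and 11 lower (25%), and 25 did not pass. The background there was 59.9% of 16370 genes called, 31.3% higher and 28.6% lower. NB4 cells given ATO had 12 higher (27.3%) and 11 lower (25%), against a background of 40.8% called, 21.2% higher and 19.6% lower. NB4 cells given ATRA+ATO had 7 higher (15.9%) and 19 lower (43.2%), against 68.2% called, 35.4% higher and 32.8% lower. The medians of the 44 log2 changes were -0.07 with ATRA, -0.01 with ATO and -0.14 with ATRA+ATO. Over all genes tested they were 0.03, 0.02 and 0.05. These splits depend on the scaling. With library sizes alone, ATRA gave 5 higher and 19 lower, ATO gave 18 higher and 5 lower, and ATRA+ATO gave 8 higher and 13 lower, where that scaling moved the median of all genes by -0.07, 0.11 and 0.08.

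HL-60 cells given ATRA had 1 member higher and 27 lower, and 16 did not pass. The background was 48.6% of 15895 genes called, 25.2% higher and 23.3% lower, so 61.4% of the members fell where 23.3% of all genes did. HL-60 cells given ATO had 0 members higher and 10 lower by edgeR at an adjusted p below 0.05 (1 higher and 15 lower at an unadjusted p below 0.05, and 12 calls by DESeq2 and 11 by limma-voom, lower in each case), against 28.7% of all genes called, 16.5% higher and 12.1% lower. HL-60 cells given ATRA+ATO had 4 higher and 30 lower, against 60.4% called, 30.7% higher and 29.7% lower. The medians of the 44 log2 changes were -0.19, -0.08 and -0.38. Within the 3 batches of the labels, which carry the replicate number, the median log2 ratio of the members for ATRA+ATO over untreated was -0.377, -0.417 and -0.38 in HL-60. In NB4 it was -0.247, -0.0907 and -0.0954. For NB4 ATRA it was -0.0675, 0.0454 and -0.0923, and batch 2 holds the NB4 ATRA library that stood apart. Without that library NB4 ATRA gave 24 calls. Without HL-60 ATRA+ATO replicate 2 the HL-60 ATRA+ATO comparison gave 35. The NB4 ATO count of 23 was 15 without NB4 untreated replicate 2, 14 without NB4 ATO replicate 1 and 15 without NB4 ATO replicate 3. The changes were small. Only CENPF in NB4 cells given ATRA+ATO reached a fitted 2-fold change among all 44 members and 6 comparisons with untreated cells, and the comparisons of a line share their untreated libraries.

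**Figure D1:**
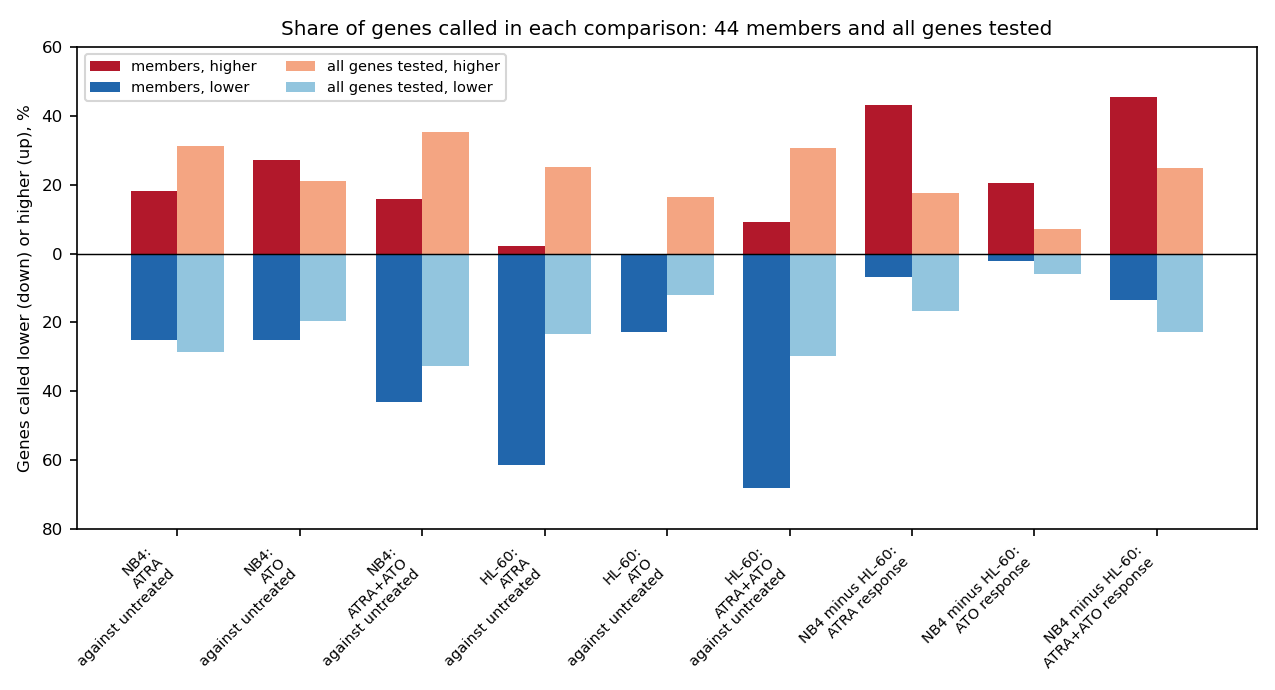
Share of the 44 members and of all genes tested that were called higher (up from 0) or lower (down from 0) at an adjusted p below 0.05, in %, for each treatment against untreated cells and for each difference between the lines. In HL-60 with ATRA+ATO, 68.2% of the members were lower beside 29.7% of all genes, and in NB4 with ATO 27.3% were higher and 25% lower, a split that library sizes alone turned to 18 members higher and 5 lower.

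**Figure D2:**
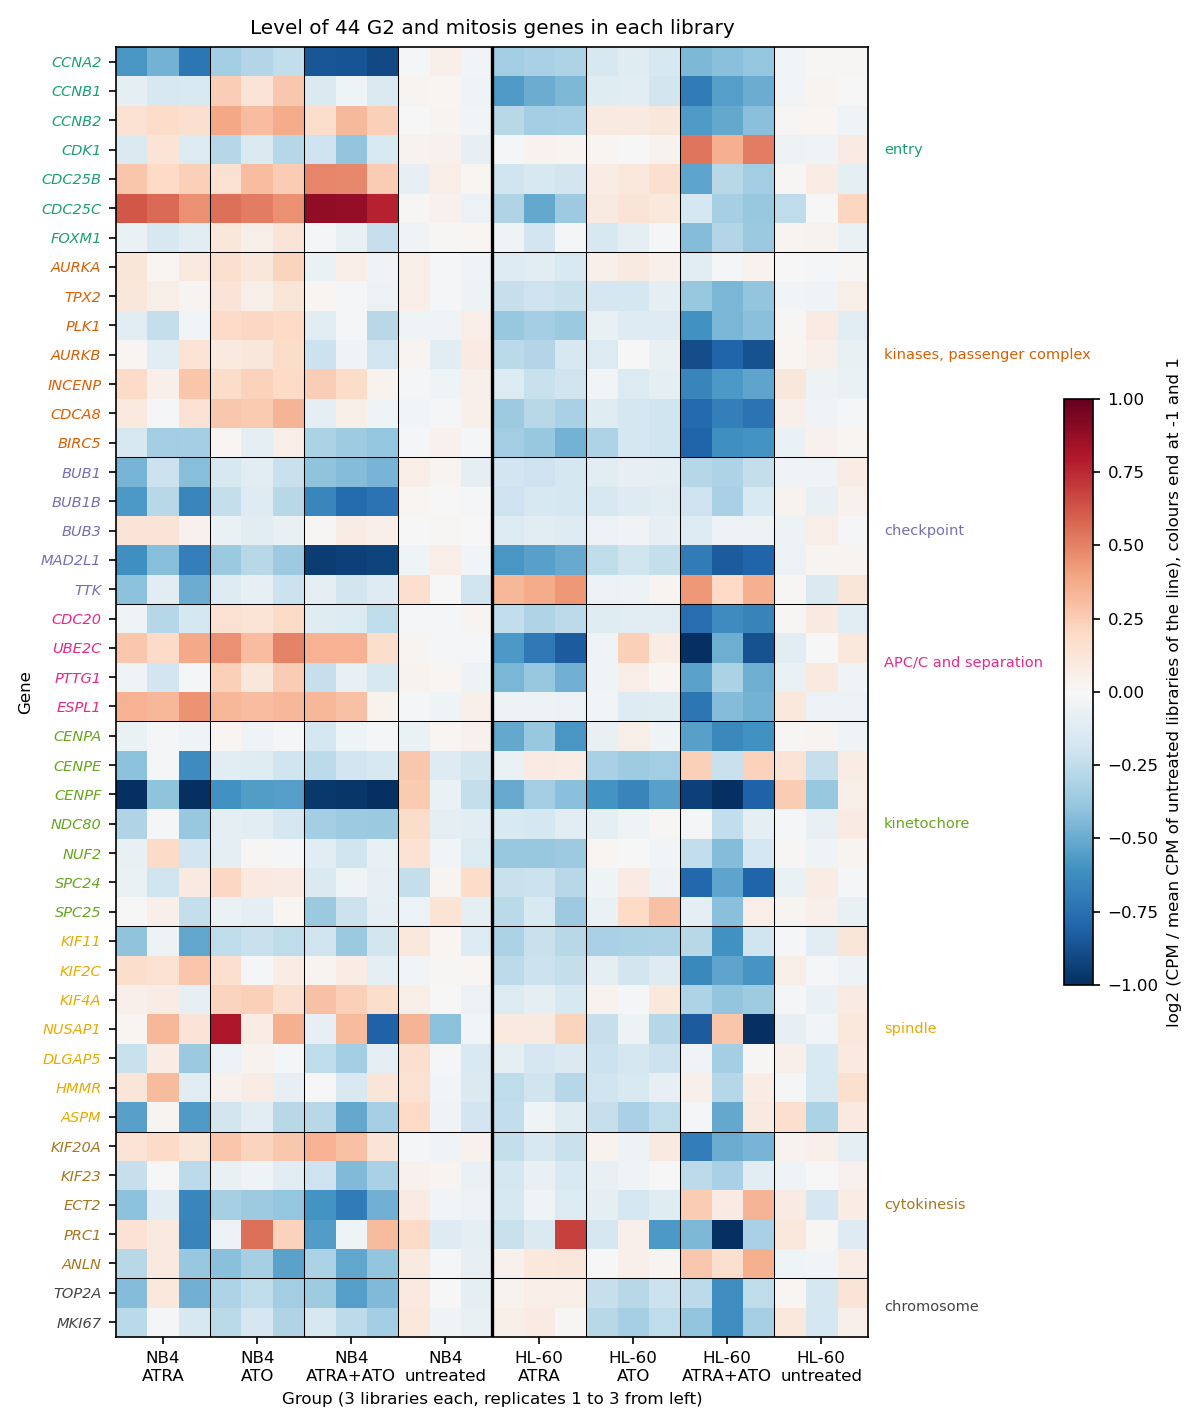
Level of each of the 44 members (rows, grouped by role) in each of the 24 libraries (columns, 3 per group), as log2 of CPM over the mean CPM of the untreated libraries of the same line, with colours ending at -1 and 1. NB4 columns mix red and blue rows, the HL-60 ATRA+ATO columns are mostly blue with red rows at CDK1, TTK, ECT2 and ANLN, and NUSAP1 and PRC1 flicker at about 1 CPM.

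CCNA2 (ENSG00000145386.11), MAD2L1 (ENSG00000164109.14), CENPF (ENSG00000117724.13) and KIF11 (ENSG00000138160.6) passed the test as lower with every treatment in both lines. The comparisons of a line share their untreated libraries, and the share of all genes with that pattern was not counted. Calls lost when a single library was left out included CCNA2 with ATO in HL-60 and CENPF with ATRA in HL-60. They also included KIF11 with ATO and with ATRA+ATO in NB4. The promoters of these members are shown because members called in the same direction can be compared there. Those of CCNB2 (ENSG00000157456.8) and KIF20A (ENSG00000112984.12) are shown beside them because both were higher in NB4 and lower in HL-60 with ATRA+ATO. Each window covers 250 bases before to 50 bases after the gene's start in RefSeq on GRCh38.p14, 5′ to 3′ on the gene's strand. Capitals mark TTTGAA (cell cycle genes homology region) and CCAAT (NF-Y box), or TTCAAA and ATTGG where the motif lies on the other strand. The windows are chr4:121823834-121824133 (minus strand) for CCNA2, chr4:120066799-120067098 (minus) for MAD2L1, chr1:214602945-214603244 (plus) for CENPF, chr10:92592880-92593179 (plus) for KIF11, chr15:59104896-59105195 (plus) for CCNB2 and chr5:138178862-138179161 (plus) for KIF20A.
CCNA2: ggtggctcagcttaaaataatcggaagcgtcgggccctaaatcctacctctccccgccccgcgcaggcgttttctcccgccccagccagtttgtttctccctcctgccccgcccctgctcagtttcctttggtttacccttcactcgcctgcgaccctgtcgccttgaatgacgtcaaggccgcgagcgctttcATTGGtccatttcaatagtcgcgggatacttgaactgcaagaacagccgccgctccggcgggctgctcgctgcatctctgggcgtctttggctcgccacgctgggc
MAD2L1: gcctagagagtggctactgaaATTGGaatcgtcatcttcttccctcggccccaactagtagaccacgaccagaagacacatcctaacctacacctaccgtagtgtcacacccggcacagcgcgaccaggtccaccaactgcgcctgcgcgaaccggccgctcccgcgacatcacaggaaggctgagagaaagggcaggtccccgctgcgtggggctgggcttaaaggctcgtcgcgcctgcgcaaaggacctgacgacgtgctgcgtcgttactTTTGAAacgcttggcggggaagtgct
CENPF: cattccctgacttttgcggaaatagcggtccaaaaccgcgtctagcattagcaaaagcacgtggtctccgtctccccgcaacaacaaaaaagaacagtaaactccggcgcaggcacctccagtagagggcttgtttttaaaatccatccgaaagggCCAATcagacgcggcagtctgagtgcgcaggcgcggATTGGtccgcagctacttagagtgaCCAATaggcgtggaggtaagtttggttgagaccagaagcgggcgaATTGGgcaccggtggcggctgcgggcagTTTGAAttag
KIF11: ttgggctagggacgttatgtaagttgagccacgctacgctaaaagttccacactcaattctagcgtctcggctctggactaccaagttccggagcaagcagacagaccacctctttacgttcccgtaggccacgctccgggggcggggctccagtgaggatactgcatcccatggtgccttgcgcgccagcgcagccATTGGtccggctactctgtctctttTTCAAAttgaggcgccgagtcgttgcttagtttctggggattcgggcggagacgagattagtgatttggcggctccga
CCNB2: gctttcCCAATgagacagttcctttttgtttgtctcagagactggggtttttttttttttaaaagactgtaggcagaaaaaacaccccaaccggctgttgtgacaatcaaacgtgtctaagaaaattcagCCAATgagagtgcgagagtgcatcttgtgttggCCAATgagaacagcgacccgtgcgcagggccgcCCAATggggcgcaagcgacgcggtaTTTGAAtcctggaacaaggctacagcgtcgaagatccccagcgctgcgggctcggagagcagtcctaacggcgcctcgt
KIF20A: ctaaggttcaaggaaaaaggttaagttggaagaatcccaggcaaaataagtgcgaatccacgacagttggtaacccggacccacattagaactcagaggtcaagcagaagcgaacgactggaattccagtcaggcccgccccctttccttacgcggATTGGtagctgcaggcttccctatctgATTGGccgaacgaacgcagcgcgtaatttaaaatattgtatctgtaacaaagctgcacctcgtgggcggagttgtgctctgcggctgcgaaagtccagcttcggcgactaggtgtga
The letters TTTGAA occur once in the windows of MAD2L1, CENPF, KIF11 and CCNB2, and they are not in these windows of CCNA2 and KIF20A. Only the forms TTTGAA and TTCGAA were searched for, so a homology region with other letters would have been missed. CCAAT occurs in each of the 6, with 4 copies in CENPF, 4 in CCNB2, 2 in KIF20A and 1 in each of the others. Among these 6 windows, both patterns of response had windows with and without TTTGAA. A link between motif and response was not tested. RefSeq windows were found for 37 of the 44 members, 47 windows in all. TTTGAA on either strand was in 63.8% of these windows, against 15.2% of the 35116 promoter windows of the table, and TTCGAA was in 6.38%, against 1.45%. CCAAT on either strand was in 76.6%, against 34.6%, and 2 or more copies were in 46.8%, against 10.8%. CCAAT together with either of the other motifs was in 57.4%, against 6.38%. A match is a string of letters and not a measured site.

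Among the genes that start mitosis, cyclin A2 fell in both lines while CDC25C and CDC25B, phosphatases that activate CDK1, rose in NB4. CCNA2 had 142, 141 and 137 CPM in NB4 ATRA+ATO libraries, against 254, 266 and 252 CPM in untreated NB4. In HL-60 it had 182, 185 and 189 CPM with ATRA+ATO, against 244, 250.5 and 249.5 CPM untreated. There was no overlap of groups in either line, and the log2 changes were -0.88 ± 0.063 in NB4 and -0.40 ± 0.0408 in HL-60 (edgeR adjusted p = 2.89e-11 and 1.37e-08). ATRA alone changed CCNA2 by -0.57 ± 0.0627 in NB4 and -0.32 ± 0.0406 in HL-60, and ATO alone by -0.31 ± 0.0624 and -0.13 ± 0.0406. The last of these lost its call without HL-60 ATO replicate 1 or HL-60 ATO replicate 3.

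CDC25C had 20.1, 19.3 and 17.9 CPM with ATRA, 19.1, 18.6 and 17.9 CPM with ATO and 24.1, 24 and 22.2 CPM with ATRA+ATO in NB4, against 13.2, 13.4 and 12.5 CPM untreated. Every treated NB4 library lay above every untreated one, and the log2 changes were 0.57 ± 0.0858, 0.49 ± 0.0853 and 0.84 ± 0.0849. In HL-60, CDC25C had 12.8, 11.5 and 11.1 CPM with ATRA+ATO, against 12.1, 14.5 and 16.8 CPM untreated. These groups overlapped, and the change of -0.28 ± 0.107 lost its call when HL-60 untreated replicate 2 or 3 or HL-60 ATRA+ATO replicate 2 or 3 was left out (-0.16 without HL-60 untreated replicate 3). CDC25B rose in NB4 with ATRA+ATO (0.40 ± 0.0723) and fell in HL-60 (-0.36 ± 0.0628).

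The B cyclins rose or did not pass in NB4, fell in HL-60 with ATRA and with ATRA+ATO, and did not pass in HL-60 with ATO. CCNB2, which encodes cyclin B2, had 168, 186 and 176 CPM in NB4 ATRA+ATO libraries, against 148, 152 and 146 CPM in untreated NB4. Its level in HL-60 was 89.1, 92.8 and 98.8 CPM with ATRA+ATO, against 133, 134 and 129 CPM untreated. The groups did not overlap in either line, but they lay on opposite sides of the untreated libraries, with log2 changes of 0.24 ± 0.0572 in NB4 and -0.48 ± 0.0489 in HL-60. CCNB1 rose with ATO in NB4 (0.20 ± 0.0575) and did not pass there with ATRA+ATO (-0.12 ± 0.0575, edgeR adjusted p = 0.0748), and it fell in HL-60 with ATRA (-0.49 ± 0.0545) and with ATRA+ATO (-0.56 ± 0.0549). CDK1 itself went the other way. It had 306, 269.7 and 301 CPM in HL-60 ATRA+ATO libraries, against 204, 206 and 223 CPM in untreated HL-60, and the groups did not overlap. In NB4 it had 217, 191 and 226 CPM with ATRA+ATO, against 258, 258 and 238 CPM untreated. These groups did not overlap either. The log2 changes were 0.49 ± 0.0496 in HL-60 and -0.26 ± 0.0772 in NB4, and the NB4 call was lost with library sizes alone. FOXM1, a transcription factor of this program, fell in HL-60 with ATRA+ATO (-0.35 ± 0.0567) and did not pass in NB4 (-0.11 ± 0.0618, edgeR adjusted p = 0.106).

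**Figure D3:**
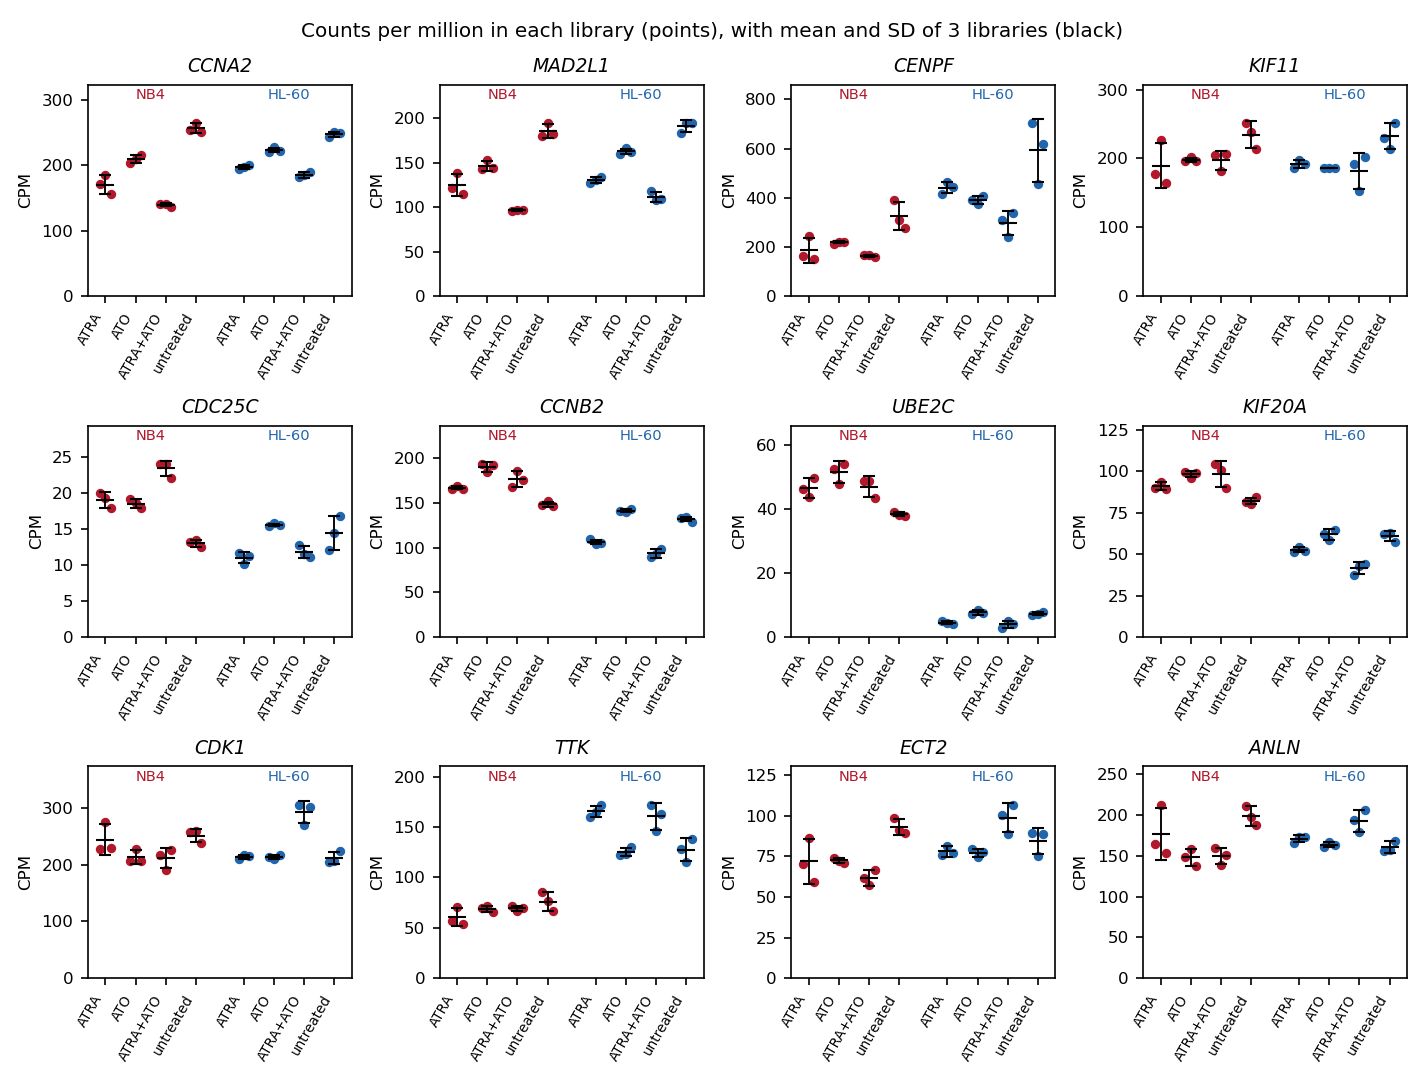
CPM in each library (points) with mean and SD of 3 libraries (black) for 12 members, NB4 in red and HL-60 in blue, each axis starting at 0. CCNA2, MAD2L1 and CENPF were lower with ATRA+ATO in both lines, CDC25C, CCNB2, UBE2C and KIF20A were higher in NB4 and lower in HL-60, and CDK1, ECT2 and ANLN were lower in NB4 and higher in HL-60.

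With ATRA+ATO the mitotic kinases and the chromosomal passenger complex, which corrects attachments at the centromere, fell in HL-60 and mostly did not pass in NB4. With ATRA+ATO, 6 of 7 fell in HL-60 (median log2 change -0.57), where 29.7% of all genes did. In NB4 1 of 7 fell (median -0.03), where 32.8% of all genes did. AURKB, the kinase of the complex, had 43.6, 49.2 and 44.3 CPM in NB4 ATRA+ATO libraries, against 51.6, 46.7 and 53.4 CPM in untreated NB4. HL-60 libraries had 23.6, 25.1 and 23.9 CPM with ATRA+ATO, against 44.3, 45.3 and 41.5 CPM untreated. The HL-60 groups did not overlap and the NB4 groups overlapped, with log2 changes of -0.83 ± 0.0673 in HL-60 and -0.15 ± 0.0786 in NB4 (edgeR adjusted p = 2.8e-10 and 0.0911). The scaffold INCENP and the subunit CDCA8 (borealin) fell in HL-60 too (-0.57 ± 0.0576 and -0.72 ± 0.0502). INCENP had 145, 138 and 125 CPM in NB4 ATRA+ATO libraries, against 120.4, 118 and 126 CPM in untreated NB4, and did not pass (0.15 ± 0.0683, edgeR adjusted p = 0.0537), although it did by DESeq2 and limma-voom and without NB4 untreated replicate 3, NB4 ATRA replicate 2, NB4 ATRA replicate 3 or NB4 ATRA+ATO replicate 3. With ATO alone, 3 of the 7 rose in NB4, where 21.2% of all genes did. CDCA8 (0.28 ± 0.0645) and INCENP (0.19 ± 0.0683) were among the 3. INCENP also rose there with ATRA alone (0.20 ± 0.0684), a call lost with library sizes alone. BIRC5 (survivin), the last subunit, fell with ATRA+ATO in both lines. It averaged 79.5 ± 1.9 CPM in NB4 ATRA+ATO libraries and 102 ± 2.77 CPM in untreated NB4 (SD, n = 3 each), groups that did not overlap, and the log2 changes were -0.36 ± 0.0657 in NB4 and -0.65 ± 0.0583 in HL-60. PLK1, which drives entry and centrosome maturation, and TPX2, which activates AURKA on the spindle, fell in HL-60 with ATRA+ATO (-0.47 ± 0.0549 and -0.39 ± 0.0418). In NB4 they did not pass (-0.14 ± 0.069 and -0.02 ± 0.0543, edgeR adjusted p = 0.0763 and 0.704). PLK1 rose in NB4 with ATO alone (0.19 ± 0.0689), a call lost with the replicate block. AURKA, the kinase of the spindle poles, passed with ATRA+ATO in neither line (-0.02 ± 0.0599 in NB4 and -0.01 ± 0.0457 in HL-60).

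In the spindle assembly checkpoint, MAD2L1, BUB1 and BUB1B fell in both lines, whereas TTK, the kinase at the top of the checkpoint, rose in HL-60. MAD2L1, which encodes the MAD2 protein that binds CDC20, had 96, 96.9 and 97.3 CPM in NB4 ATRA+ATO libraries, against 179.7, 194 and 182 CPM in untreated NB4. In HL-60 it had 118, 108 and 109.6 CPM with ATRA+ATO, against 183, 195 and 195 CPM untreated. There was no overlap of groups in either line, and the log2 changes were -0.95 ± 0.0674 in NB4 and -0.76 ± 0.0482 in HL-60 (edgeR adjusted p = 2.85e-11 and 4.26e-12). It also fell with ATRA alone by 0.55 in NB4 and 0.54 in HL-60 on the log2 scale, and with ATO alone by 0.35 and 0.22. BUB1B, the BUBR1 protein of the checkpoint complex, had 125, 116 and 118 CPM in NB4 ATRA+ATO libraries, against 199.7, 196 and 194 CPM in untreated NB4. Its log2 changes were -0.73 ± 0.0777 in NB4 and -0.21 ± 0.0479 in HL-60, and those of the kinase BUB1 were -0.44 ± 0.0689 and -0.26 ± 0.0432. TTK had 160.2, 165 and 172 CPM with ATRA, 122, 123 and 130.1 CPM with ATO and 172, 146 and 163 CPM with ATRA+ATO in HL-60, against 128, 115 and 138 CPM untreated. The ATRA and ATRA+ATO libraries lay above all untreated ones, and the log2 changes were 0.39 ± 0.0629 with ATRA and 0.35 ± 0.063 with ATRA+ATO. In NB4 it had 57.2, 70.4 and 54 CPM with ATRA, against 85.5, 76.2 and 66.3 CPM untreated. The NB4 groups overlapped, and the change of -0.31 ± 0.0929 lost its call without NB4 untreated replicate 1. BUB3, which recruits BUB1 and BUBR1 to kinetochores, passed with ATRA+ATO in neither line (0.04 ± 0.0524 in NB4 and -0.06 ± 0.0435 in HL-60).

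Among the genes of the anaphase promoting complex pathway, UBE2C and ESPL1 rose in NB4. All 4 fell in HL-60 with ATRA+ATO, where 29.7% of all genes did. UBE2C had 46.4, 43.9 and 49.9 CPM with ATRA, 52.8, 47.8 and 54.3 CPM with ATO and 49, 48.9 and 43.4 CPM with ATRA+ATO in NB4, against 39.2, 38.2 and 38 CPM untreated. Its level in HL-60 was 2.97, 5.2 and 4 CPM with ATRA+ATO, against 6.78, 7.32 and 7.85 CPM untreated. No treated library overlapped the untreated ones in these comparisons, and the log2 changes with ATRA+ATO were 0.28 ± 0.0755 in NB4 and -0.82 ± 0.16 in HL-60. ESPL1, which encodes separase, had 101, 98.4 and 82.2 CPM in NB4 ATRA+ATO libraries, against 79.8, 77.9 and 83.4 CPM in untreated NB4. HL-60 libraries had 62.7, 76.3 and 74.3 CPM with ATRA+ATO, against 111, 99.2 and 99.3 CPM untreated. The NB4 groups overlapped and the HL-60 groups did not overlap. The log2 changes were 0.22 ± 0.0717 in NB4, a call lost without NB4 ATRA+ATO replicate 1 or 2, and -0.52 ± 0.0655 in HL-60. With ATRA alone ESPL1 rose in NB4 by 0.40 ± 0.0719. CDC20, the activator of the complex, fell in HL-60 with ATRA+ATO (-0.67 ± 0.0513) and less in NB4 (-0.18 ± 0.0641, lost with library sizes alone and without NB4 untreated replicate 3 or NB4 ATRA+ATO replicate 3). The securin gene PTTG1 fell in HL-60 (-0.42 ± 0.0598), and its NB4 change of -0.16 ± 0.0665 was lost with the replicate block and without NB4 untreated replicate 1, NB4 untreated replicate 2, NB4 ATRA+ATO replicate 1 or NB4 ATRA+ATO replicate 3. With ATO alone PTTG1 rose in NB4 (0.19 ± 0.0663, edgeR adjusted p = 0.0272).

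CENPF, a large protein of the outer kinetochore that peaks in G2, had the largest fall of the 44 members with ATRA+ATO in both lines. It had 163, 246 and 151 CPM with ATRA, 214, 220.5 and 222 CPM with ATO and 167, 166 and 158 CPM with ATRA+ATO in NB4, against 390.0, 310.4 and 276 CPM untreated. In HL-60 it had 417, 464 and 444 CPM with ATRA, 392, 374 and 407 CPM with ATO and 311, 243 and 338 CPM with ATRA+ATO, against 706, 455 and 618 CPM untreated. No NB4 treated library reached the untreated ones. In HL-60 the ATRA libraries overlapped the untreated range, and the spread among untreated libraries was wide. The log2 changes with ATRA+ATO were -1.003 ± 0.129 in NB4 and -0.98 ± 0.111 in HL-60 (edgeR adjusted p = 4.12e-07 and 7.07e-08). With single libraries left out, the NB4 change ranged over -1.10 to -0.85 and the HL-60 change over -1.14 to -0.84. With ATRA alone they were -0.78 ± 0.128 in NB4 and -0.41 ± 0.109 in HL-60, a call lost without HL-60 untreated replicate 1 (-0.27). With ATO alone they were -0.59 ± 0.128 and -0.59 ± 0.11.

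The other kinetochore members had smaller changes. CENPA, the histone H3 variant of the centromere, fell in HL-60 with ATRA+ATO (-0.58 ± 0.0717) and did not pass in NB4 (-0.08 ± 0.0735, edgeR adjusted p = 0.325). Of the 4 members of the microtubule-binding NDC80 complex, NDC80 and SPC25 fell in NB4 (-0.36 ± 0.0931 and -0.23 ± 0.0961) and NUF2 and SPC24 fell in HL-60 (-0.26 ± 0.0582 and -0.68 ± 0.0744). SPC24 had 25.2, 30.2 and 25.1 CPM in HL-60 ATRA+ATO libraries, against 41.6, 45.7 and 43.3 CPM in untreated HL-60, and in NB4 it had 20.6, 22 and 21.4 CPM with ATRA+ATO, against 19.3, 23.1 and 25.7 CPM untreated. The HL-60 groups did not overlap, and the NB4 groups overlapped. The NB4 call of SPC25 was lost with the replicate block and without NB4 untreated replicate 1, NB4 untreated replicate 2, NB4 ATO replicate 1, NB4 ATRA+ATO replicate 1 or NB4 ATRA+ATO replicate 2 (-0.14 without NB4 untreated replicate 2 and -0.15 without NB4 ATRA+ATO replicate 1). CENPE, the kinesin that moves chromosomes to the spindle equator, passed with ATRA+ATO in neither line (-0.21 ± 0.116 in NB4 and 0.11 ± 0.0938 in HL-60).

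Among spindle motors and microtubule binders, KIF11 fell in both lines and KIF4A rose in NB4 and fell in HL-60. KIF11, the kinesin that pushes the spindle poles apart, had 204, 181 and 206 CPM in NB4 ATRA+ATO libraries, against 252, 238 and 214 CPM in untreated NB4. Its level in HL-60 was 191, 152 and 202 CPM with ATRA+ATO, against 230.0, 214 and 252 CPM untreated. The groups did not overlap in either line, and the log2 changes were -0.26 ± 0.0893 in NB4 and -0.33 ± 0.0734 in HL-60, where leaving out single libraries gave -0.42 to -0.22 (-0.22 without HL-60 ATRA+ATO replicate 2). The NB4 call was lost with library sizes alone and without NB4 untreated replicate 1, NB4 untreated replicate 2 or NB4 ATRA+ATO replicate 2. With ATRA alone KIF11 changed by -0.29 ± 0.0895 in NB4 (-0.45 without NB4 ATRA replicate 2) and -0.26 ± 0.0731 in HL-60, and with ATO alone by -0.26 ± 0.0893, a call lost with library sizes alone and without NB4 untreated replicate 1, NB4 untreated replicate 2, NB4 ATO replicate 1 or NB4 ATO replicate 3, and -0.30 ± 0.0731. KIF4A, a chromosome-bound kinesin, had 134, 129 and 123 CPM in NB4 ATRA+ATO libraries, against 114, 109 and 105 CPM in untreated NB4, and 90.1, 85 and 87.1 CPM in HL-60 ATRA+ATO libraries, against 110.2, 106 and 118 CPM in untreated HL-60. There was no overlap of groups in either line, with changes of 0.23 ± 0.0629 and -0.33 ± 0.0522. KIF2C, which takes microtubules apart at centromeres, rose in NB4 with ATRA (0.22 ± 0.0639) and fell in HL-60 with ATRA+ATO (-0.57 ± 0.0482). ASPM, which holds the spindle poles together, fell in NB4 with ATRA+ATO (-0.38 ± 0.118), a call lost without NB4 untreated replicate 1 and with DESeq2. DLGAP5, which stabilises spindle microtubules, fell with ATRA+ATO in NB4 (-0.23 ± 0.0943), a call lost with DESeq2, with library sizes alone and without NB4 untreated replicate 1, NB4 untreated replicate 2, NB4 ATRA+ATO replicate 1 or NB4 ATRA+ATO replicate 2 (-0.14 without NB4 untreated replicate 1), and did not pass in HL-60 (-0.10 ± 0.0714, edgeR adjusted p = 0.258). HMMR, which binds spindle microtubules, had 166, 132 and 169 CPM in HL-60 ATRA+ATO libraries, against 158, 144 and 179 CPM in untreated HL-60, and passed with ATRA+ATO in neither line. NUSAP1 had 1.15, 1.51 and 0.694 CPM in NB4 ATRA+ATO libraries, against 1.54, 0.911 and 1.19 CPM in untreated NB4, and passed in none of the 6 comparisons with untreated cells.

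The genes of cytokinesis split in each line. KIF20A had 105, 101 and 89.7 CPM in NB4 ATRA+ATO libraries, against 81.7, 80.3 and 84.4 CPM in untreated NB4. HL-60 libraries had 37.6, 43.1 and 44 CPM with ATRA+ATO, against 62.2, 63 and 57.3 CPM untreated. The groups did not overlap in either line and moved apart, by 0.25 ± 0.0642 in NB4 and -0.53 ± 0.0668 in HL-60. ECT2, which activates RhoA at the division site, and ANLN (anillin), which joins the contractile ring to the membrane, showed the reverse. ECT2 had 61.4, 57.2 and 66.7 CPM in NB4 ATRA+ATO libraries, against 98.7, 91.1 and 89.2 CPM in untreated NB4. In HL-60 it had 100.4, 89 and 107 CPM with ATRA+ATO, against 89, 75.1 and 88.8 CPM untreated. The NB4 groups did not overlap and the HL-60 groups overlapped, with log2 changes of -0.60 ± 0.0957 in NB4 and 0.25 ± 0.0692 in HL-60. ANLN had 159.5, 139 and 151 CPM in NB4 ATRA+ATO libraries, against 211, 198 and 187 CPM in untreated NB4, and 194, 179 and 206 CPM in HL-60 ATRA+ATO libraries, against 156, 157 and 169 CPM in untreated HL-60. Its groups did not overlap in either line (-0.42 ± 0.0928 and 0.28 ± 0.0514). With library sizes alone the ECT2 rise in HL-60 did not pass. KIF23, the kinesin of centralspindlin, fell in both lines (-0.33 ± 0.0742 and -0.21 ± 0.0576). PRC1, which bundles midzone microtubules, had 0.708, 1.01 and 1.3 CPM in NB4 ATRA+ATO libraries, against 1.2, 0.958 and 0.985 CPM in untreated NB4, and passed in none of the 6 comparisons with untreated cells.

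TOP2A, the topoisomerase that untangles sister chromatids, and MKI67, which coats mitotic chromosomes and is the Ki-67 antigen, had the highest CPM of the members. TOP2A had 473, 412 and 444 CPM in NB4 ATRA+ATO libraries, against 646, 602 and 565 CPM in untreated NB4. Its level in HL-60 was 1027, 1047 and 1044 CPM with ATRA, 850.4, 823 and 859.6 CPM with ATO and 832, 651 and 837 CPM with ATRA+ATO, against 1016, 892 and 1091 CPM untreated. The ATRA libraries of HL-60 lay within the untreated range, and the ATRA+ATO libraries lay below it. Its log2 changes with ATRA+ATO were -0.46 ± 0.103 in NB4 and -0.35 ± 0.0712 in HL-60. MKI67 had 746, 694 and 656 CPM in NB4 ATRA+ATO libraries, against 897, 809 and 791 CPM in untreated NB4, and 617, 528 and 644 CPM in HL-60 ATRA+ATO libraries, against 874, 720.5 and 842 CPM in untreated HL-60. Its groups did not overlap in either line, with changes of -0.26 ± 0.0693 and -0.43 ± 0.0633. With ATRA alone it passed in neither line (-0.13 ± 0.0693 and 0.06 ± 0.063), although it did in NB4 with library sizes alone and without NB4 ATRA replicate 2.

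The response to each treatment was set against that of the other line in a fit of all 24 libraries, as the log2 change in NB4 minus that in HL-60. For ATRA+ATO, 20 members had a higher difference (the response of NB4 above that of HL-60) and 6 a lower one, 59.1% called beside 47.5% of 17930 genes tested, of which 24.9% were higher and 22.7% lower. The median difference of the members was 0.23, and that of all genes was 0.11, which library sizes alone raised by 0.14. For 26 of 26 the call held when each of the 24 libraries was left out. The 7 members called higher in NB4 and lower in HL-60 with ATRA+ATO (CCNB2, CDC25B, CDC25C, UBE2C, ESPL1, KIF4A and KIF20A) were all among the 20. Those called lower in NB4 and higher in HL-60 (CDK1, ECT2 and ANLN) were all among the 6. Opposite calls in the same libraries nearly fix that outcome, so it adds no evidence. The share of all genes with opposite calls was not counted. The largest differences were 1.14 ± 0.136 for CDC25C and 1.12 ± 0.162 for UBE2C, and at the other end -0.82 ± 0.128 for ECT2 and -0.72 ± 0.0961 for CDK1. CCNA2 and BUB1B, lower in both lines, fell further in NB4 (-0.46 ± 0.0717 and -0.50 ± 0.0944). AURKB and CDCA8, lower in HL-60 and not past the threshold in NB4, differed by 0.71 ± 0.102 and 0.71 ± 0.0778. For CENPF the difference was 0.00288 ± 0.195 and for MAD2L1 -0.16 ± 0.0809 (edgeR adjusted p = 0.9999 and 0.101), so a difference between the lines was not detected for either.

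By role, the line difference with ATRA+ATO was higher for 6 of the 7 genes of the mitotic kinases and passenger complex (median 0.39), and higher for all 4 genes of the anaphase promoting complex pathway (median 0.64). Of the 7 entry genes 5 were higher and 2 lower. In the checkpoint 2 of 5 were lower (median -0.16). Of the 7 kinetochore members and of the 7 spindle members 2 each were higher. Over all genes tested, 24.9% were higher and 22.7% lower. For ATRA alone, 19 members were higher and 3 lower, beside 17.7% and 16.8% of all genes, 34.5% called in all. INCENP and KIF2C differed by 0.36 ± 0.0887 and 0.44 ± 0.0776, and UBE2C and CDC25C by 0.98 ± 0.158 and 0.94 ± 0.136, while TTK had the lowest difference (-0.71 ± 0.12). For ATO alone, 9 were higher and 1 lower, beside 7.11% and 6% of all genes, 13.1% called in all. CDCA8 and ESPL1 differed by 0.46 ± 0.0772 and 0.42 ± 0.0994, and the 1 lower member was ANLN (-0.45 ± 0.114). Without NB4 ATRA replicate 2 the ATRA comparison gave 17 higher and 11 lower.

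**Figure D4:**
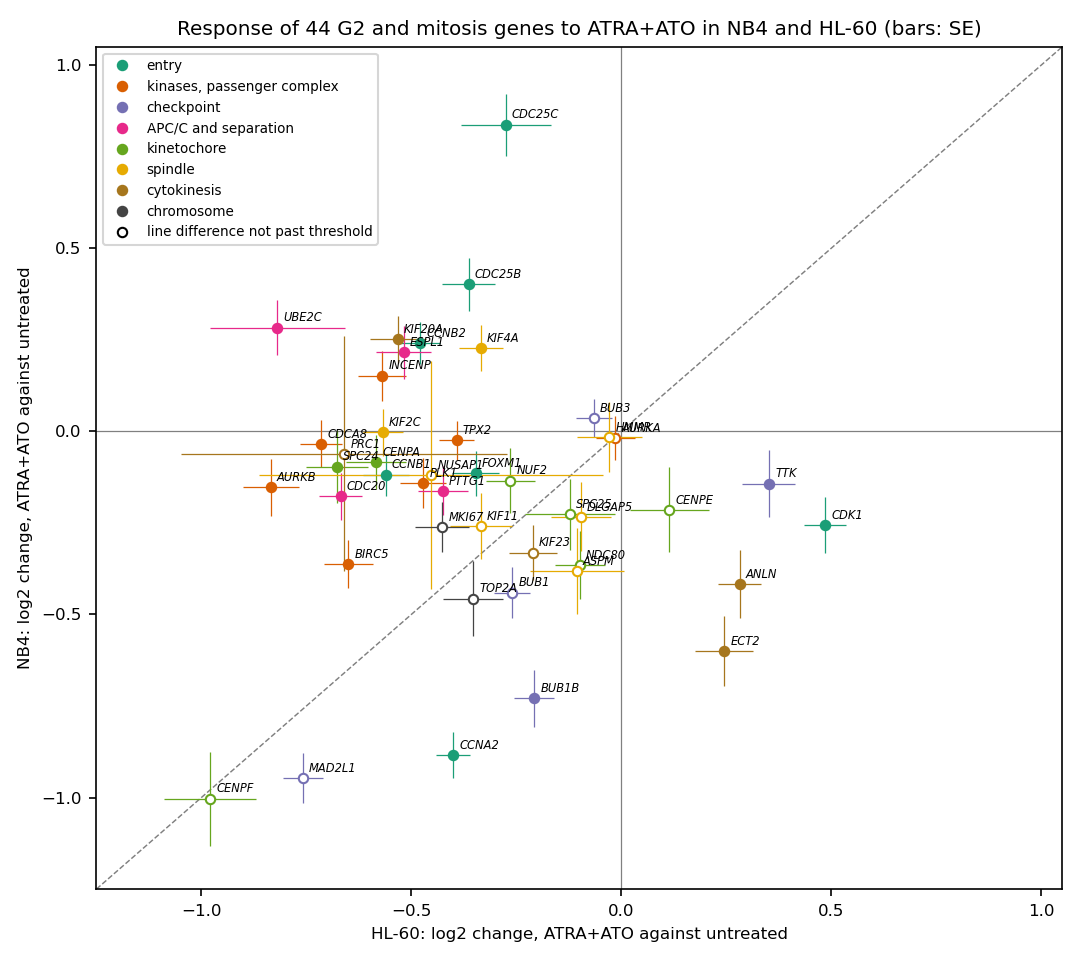
Log2 change with ATRA+ATO against untreated in NB4 (vertical) and HL-60 (horizontal) for the 44 members, with SE bars, coloured by role, with the dashed line marking equal change. Filled points passed the test of the difference between lines. CDC25C, UBE2C and CDC25B lie in the upper left, ECT2, ANLN and CDK1 in the lower right, and CENPF and MAD2L1 in the lower left.

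The combination was also set against each drug. In HL-60, 18 members were lower and 4 higher with ATRA+ATO than with ATRA, beside 43.9% of all genes called, 22% higher and 21.9% lower. Against ATO 28 were lower and 5 higher, beside 54.5% called, 27.5% higher and 27% lower, where library sizes alone moved the median of all genes by -0.10. AURKB had 23.6, 25.1 and 23.9 CPM with ATRA+ATO in HL-60, against 36.3, 35.7 and 39.2 CPM with ATRA and 39.8, 43.9 and 41.4 CPM with ATO. Its libraries with both drugs lay below all those with either drug, and the log2 changes were -0.61 ± 0.0674 against ATRA and -0.78 ± 0.0672 against ATO. CENPF fell against ATRA (log2 change -0.57 ± 0.11), and so did MKI67 (-0.49 ± 0.0633). CDK1 rose by 0.46 ± 0.0496 against ATRA and 0.46 ± 0.0496 against ATO, and ECT2 by 0.35 ± 0.0692 and 0.36 ± 0.0693.

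In NB4, fewer members were called against either drug than in HL-60. Against ATO alone 17 members were lower and 3 higher, beside 56.9% of all genes called, 28.6% higher and 28.3% lower, and with library sizes alone 20 were lower and 1 higher. MAD2L1 and CCNA2 had the largest falls (-0.59 ± 0.0671 and -0.58 ± 0.0628). Against ATRA alone 8 were lower and 2 higher, beside 38% of all genes called, 16.8% higher and 21.2% lower. That split turned to 7 higher and 2 lower with library sizes alone, where the median of all genes moved by 0.14, and the median of the members changed sign to 0.04 (-0.10 with TMM). It also held 3 higher and 4 lower when only genes of at least 1 CPM in 3 libraries were tested. Only CCNA2 (-0.31 ± 0.0628) and MAD2L1 (-0.40 ± 0.0672) kept their calls against ATRA when each library was left out, and without NB4 ATRA+ATO replicate 2 the count of 10 was 6.

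The interaction asks whether the log2 change with both drugs differs from the sum of the single changes. In HL-60, 4 members were above the sum and 11 below it, beside 32.5% of all genes called, 14.4% higher and 18.1% lower, and with library sizes alone 2 were above and 13 below. AURKB (-0.55 ± 0.0935), SPC24 (-0.46 ± 0.104) and ESPL1 (-0.40 ± 0.0919) were below the sum, and ECT2 (0.46 ± 0.0979) and CDK1 (0.43 ± 0.0701) were above it. Each of these 5 calls held when each library was left out. In NB4, 0 members were above the sum and 7 below it by edgeR (2 above and 12 below at an unadjusted p below 0.05, and 7 below by DESeq2 and 7 by limma-voom), beside 18.7% of all genes called, 6.14% higher and 12.5% lower. ESPL1 (-0.49 ± 0.101), UBE2C (-0.42 ± 0.106) and CDCA8 (-0.41 ± 0.0913) had their calls with each library left out. The NB4 count moved with single libraries. It was 20, with 7 above and 13 below, without NB4 ATRA replicate 2, 3 without NB4 ATRA+ATO replicate 1, and 4 without NB4 untreated replicate 2 or 3, NB4 ATO replicate 1 or 3 or NB4 ATRA+ATO replicate 3.

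Genes of neighbouring pathways were counted from lists of their own. Beside these counts, 32.8% of all genes tested were called lower and 35.4% higher in NB4 with ATRA+ATO (median log2 change 0.05), and 29.7% lower and 30.7% higher in HL-60 (median -0.00267). Of 48 DNA replication genes, 38 fell and 5 rose in NB4 with ATRA+ATO (median log2 change -0.56), and 45 fell in HL-60 (median -0.60). The helicase subunit genes MCM7 and MCM4 changed by -1.86 ± 0.0652 and -1.28 ± 0.0592 in NB4 and by -1.55 ± 0.0454 and -1.16 ± 0.0405 in HL-60. Of 18 condensin and cohesin genes, 15 fell in NB4 (median -0.42), and 12 fell and 2 rose in HL-60 (median -0.27). The sororin gene CDCA5, which protects cohesion, changed by -0.72 ± 0.0678 in NB4 and -0.86 ± 0.0536 in HL-60. Of 17 genes of the anaphase promoting complex, which here include its co-activator FZR1, its inhibitor FBXO5 and the ubiquitin-conjugating enzyme UBE2S beside the subunits, 12 fell and 4 rose in NB4 (median -0.48), and 7 fell and 2 rose in HL-60 (median -0.13). ANAPC1, its largest subunit, changed by -1.19 ± 0.0676 and -0.40 ± 0.0447. Of 31 other kinetochore genes, 16 fell and 1 rose in NB4 (median -0.25), and 17 fell and 4 rose in HL-60 (median -0.27), and SKA3, which couples kinetochores to microtubules, had the smallest p in NB4 (-1.26 ± 0.0728 there and -0.86 ± 0.0585 in HL-60). Of 18 other mitotic kinases and entry factors, 11 fell and 2 rose in NB4 (median -0.31), and 13 fell and 1 rose in HL-60 (median -0.41). ARPP19, an inhibitor of the phosphatase that opposes CDK1, changed by -0.99 ± 0.0615 in NB4 and did not pass in HL-60 (0.11 ± 0.0508, edgeR adjusted p = 0.0686). Of 21 other spindle and cytokinesis genes tested, 8 fell and 6 rose in NB4 (median -0.13), shares near those of all genes, and 13 fell and 2 rose in HL-60 (median -0.32). NUMA1, which anchors the spindle poles, changed by 1.01 ± 0.0616 in NB4 and did not pass in HL-60 (-0.12 ± 0.0533, edgeR adjusted p = 0.0513).

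Among 18 regulators of the MuvB, E2F and pocket protein family tested in NB4, 11 fell and 3 rose with ATRA+ATO (median -0.28), and of 19 tested in HL-60 10 fell and 2 rose (median -0.18), beside the shares of all genes given above. TFDP1, the partner of E2F proteins, changed by -1.09 ± 0.0582 in NB4 and -0.77 ± 0.0389 in HL-60. Of the 7 genes of inhibitors of cyclin-dependent kinases, 4 had enough reads in NB4 and 3 of these rose, and 4 of 7 tested rose in HL-60, beside 35.4% and 30.7% of all genes called higher in NB4 and HL-60. The filter keeps a gene with enough reads in the treated libraries alone, so the share that rose can depend on the filter. CDKN2D changed by 2.59 ± 0.127 in NB4 and 1.503 ± 0.116 in HL-60, and CDKN1A, which encodes p21, by 4.01 ± 0.237 and 1.18 ± 0.24.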

How the data were processed

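Raw read counts per gene were deposited by the authors as 1 table for 24 libraries of 2 cell lines. Per the labels' protocols, mRNA was taken with oligo(dT) and libraries were made with a TruSeq RNA kit and read as pairs. The submitters' processing notes name fastp, HISAT2, featureCounts, DESeq2 and GRCh38, with no versions, and strandedness is not given in the sources used here. Of the counts from 1 to 9, 74.4% were even, beside 51.5% of those of 500 or more, as where both mates of a pair are counted, so halved counts were tried too. Ensembl IDs were matched to symbols for 60444 of 60655 genes.

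Genes were kept with edgeR 4.0.16 filterByExpr, scaled by TMM, and tested by its quasi-likelihood test with Benjamini-Hochberg adjustment over all genes kept, calling an adjusted p below 0.05. Comparisons within a line used its 12 libraries, 8 residual degrees of freedom, and differences between lines all 24, with 16. Other tools tried were DESeq2 1.42.0 and limma-voom (limma 3.58.1). Other scalings were DESeq2's size factors and plain library sizes. Looser and stricter filters kept genes with 1 read or more, or with 1 CPM or more in at least 3 libraries. The remaining alternatives were the replicate number as a block, a threshold of 0.01, fits on other sets of libraries, halved counts and each library left out. The scripts were tested on simulated counts. Within-batch ratios used a pseudocount of 0.5 CPM.

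The labels give each replicate number as a batch, which pairs the libraries. The correlation of same-numbered libraries' deviations from their group means ran from -0.304 to 0.219 in NB4 and from -0.0473 to 0.233 in HL-60 (18 pairs each). For differently numbered libraries of different groups it ran from -0.241 to 0.231 in NB4 and from -0.257 to 0.189 in HL-60 (36 pairs each). The members and lists were chosen with earlier results of these data known. Values are given for the 2 members of each role with the smallest p for ATRA+ATO in NB4, the 3 largest called rises and falls of each comparison, members called against most others where these were 5 or fewer, and members called in none of the 6 comparisons with untreated cells, 31 in all. Values of other members were added after they were seen, to complete a role. Of the other lists, values are given for genes among the 2 with the smallest p in NB4. The number of reads behind a value limits its precision.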

Additional observations from a re-analysis of the deposited data

Results flagged for a closer look

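The response of NB4 to treatment differed from that of HL-60 by the test of the difference itself (edgeR quasi-likelihood test, log2 change in NB4 minus that in HL-60) for 22 members with ATRA, 10 with ATO and 26 with ATRA+ATO. That is 50%, 22.7% and 59.1% of the members, beside 34.5%, 13.1% and 47.5% of all 17930 genes tested. With ATRA the differences were 0.944 for CDC25C, 0.985 for UBE2C, 0.439 for KIF2C, 0.363 for INCENP and -0.706 for TTK. With ATO they were 0.459 for CDCA8, 0.416 for ESPL1 and -0.451 for ANLN. With ATRA+ATO they were 1.14 for CDC25C, 1.12 for UBE2C, 0.708 for AURKB and 0.707 for CDCA8, and at the other end -0.819 for ECT2, -0.716 for CDK1, -0.496 for BUB1B and -0.458 for CCNA2.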

How the results depend on the processing

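No call of a member changed sign under any alternative run. With an adjusted p below 0.01 the calls were 13 for NB4 ATO, 3 for NB4 ATRA+ATO against ATRA, 3 for the NB4 interaction, 5 for HL-60 ATO and 5 for the line difference with ATO. With only the groups compared they were 4 for NB4 ATRA+ATO against ATRA and 16 for the line difference with ATO, which was 6 with every gene of at least 1 read. The NB4 interaction gave 4 with DESeq2 size factors and 4 with library sizes alone. The causes were not tested.

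Leaving out each library gave 14 to 24 calls for NB4 ATRA, 14 to 26 for ATO, 21 to 31 for ATRA+ATO, 6 to 12 for ATRA+ATO against ATRA, 15 to 25 against ATO and 3 to 20 for the interaction. In HL-60 the ranges were 22 to 34, 7 to 14, 33 to 35, 20 to 27, 31 to 34 and 13 to 20. They were 18 to 28, 7 to 11 and 26 to 29 for the line differences with ATRA, ATO and ATRA+ATO, and 25 to 30 for the untreated lines.

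With the replicate block, which pairs libraries of a batch, NB4 ATRA+ATO lost PTTG1 and SPC25, ATRA+ATO against ATRA lost KIF23 and ECT2, against ATO CDC25B, BUB3 and ECT2, and the interaction AURKA and PTTG1. NB4 ATO and the untreated lines lost PLK1, and the line differences lost AURKB with ATRA and CDC25C with ATO. The block added TOP2A to NB4 ATRA, NDC80 to HL-60 ATRA, BUB1B, DLGAP5 and ASPM to HL-60 ATO (13 calls), TOP2A to HL-60 ATRA+ATO against ATO, and TOP2A and MKI67 to the HL-60 interaction. It changed no other call of a member.

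Some changes that did not pass changed sign. With library sizes alone and with at least 1 CPM in 3 libraries, the NB4 ATRA+ATO changes were 0.0599 and 0.0249 for AURKA and 0.0549 and 0.0196 for TPX2. The CENPF line difference with ATRA+ATO was -0.00698 with DESeq2, -0.00659 with DESeq2 size factors and -0.0297 with every gene of 1 read or more. With libraries left out the ranges were -0.0581 to 0.0175 for AURKA and -0.0416 to 0.0156 for TPX2 in NB4 with ATRA+ATO, and in HL-60 -0.0154 to 0.117 for MKI67 with ATRA and, with ATRA+ATO, -0.0489 to 0.026 for AURKA and -0.168 to 0.00451 for DLGAP5. They were -0.138 to 0.163 for the CENPF line difference with ATRA+ATO and -0.012 to 0.11 for SPC25 between the untreated lines. NUSAP1 and PRC1, near 1 CPM, had the widest errors of the members with ATRA+ATO, and the part of depth in them was not tested.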
